A study of Mus musculus with 6 samples.

Results

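Genes for the respiratory chain that are encoded in the nucleus were read from an RNA-seq table of mouse colonic organoids. They were picked by a rule on their names, which was proposed with earlier results of these data known. Symbols beginning with Nduf, Uqcr, Atp5 or Cox followed by a digit from 4 to 8 were taken, together with Sdha, Sdhb, Sdhc and Sdhd, and 3 names with the pseudogene suffix -ps were left out. This gave 98 of the 40840 genes in the table. They comprised 37 subunit genes of complex I, 4 of complex II, 8 of complex III, 20 of complex IV and 17 of ATP synthase. The names also took in 8 assembly factors of complex I (Ndufaf genes), which build the complex and are not part of it, and 4 additional copies of complex I subunit genes. Ndufa4 and its paralog Ndufa4l2, named after complex I, were counted with complex IV, where the Ndufa4 protein is found.

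Organoids are cultures of epithelium grown from colonic crypts in a gel. DSS organoids were established from 3 wt C57BL/6 mice that had drunk 2.5% dextran sodium sulfate (DSS) in water, which damages the lining of the colon, for 5 days from 10 weeks of age and for another 5 days after a break of 2 weeks. Control organoids were established from 3 control wt C57BL/6 mice, whose age was not listed. Cultures of DSS mice were started on day 14 after DSS, and RNA of both groups was collected on day 4 of culture, with 1 library per mouse and 3 mice per group. The medium described for wt organoids held serum and medium conditioned by L-WRN cells, which secrete Wnt, R-spondin and noggin, with small-molecule inhibitors added. The values therefore describe cultured epithelium and not the colon itself, and an effect of age and of treatment cannot be told apart.

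The respiratory chain passes electrons from nutrients to oxygen in the inner mitochondrial membrane. Complex I takes electrons from NADH and complex II from succinate, complex III hands them from ubiquinol to cytochrome c, and complex IV gives them to oxygen. Complexes I, III and IV pump protons, and ATP synthase makes ATP as the protons flow back. A few core subunits are encoded in mitochondrial DNA and the rest, including all of complex II, in the nucleus. Colonocytes are known for oxidizing butyrate made by gut bacteria, which feeds this chain.

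Values were TPM, which scale each gene by its transcript length and each library to the same total. Levels of different genes can therefore be compared, but sequencing depth is not kept and is unknown, so no counting error is given. The number of genes with at least 1 TPM ranged from 11328 to 11607 per library. Genes with a mean of at least 1 TPM were tested, 11643 in all, and 751 of them (6.45%) were higher and 453 (3.89%) lower in DSS organoids by limma at an adjusted p below 0.05. DSS replicate 1 stood furthest from the rest, with a correlation of log2(TPM + 1) of 0.941 and 0.966 with DSS replicates 2 and 3, which had 0.981 with each other. The 12 markers of colonic epithelium were all detected and summed to between 14549 and 26082 TPM in DSS libraries, against 22607 to 25459 TPM in control libraries. Markers of lymphocytes, fibroblasts, muscle, endothelium, adipocytes, nerve and male germ cells summed to at most 4.94 TPM in every library. Myeloid markers summed to 261, 364 and 213 TPM in DSS libraries, against 64.0, 56.5 and 75.0 TPM in control libraries. Lyz2 made up 145, 227 and 123 TPM of the DSS sums, and Cd14 made up 52.6, 50.7 and 69.8 TPM of the control sums. Of the 8 tested, 6 rose. Among these, Tyrobp, Fcer1g, Itgam, Laptm5 and Mpeg1 had control means of at most 0.247 TPM and passed the filter only through DSS libraries. That count therefore follows largely from the filter. None of the 16 myeloid markers was at 0 in all libraries, and 3 stayed under 1 TPM throughout. Markers of cycling cells summed to 1064, 368 and 678 TPM in DSS libraries, against 278, 294 and 306 TPM in control libraries, and 4 of the 12 rose. In bulk libraries such as these, fewer cells of a type and less RNA per cell cannot be told apart.

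As a group, the respiratory chain genes were slightly higher in DSS organoids, and 8 of the 92 tested passed the limma threshold. Ndufv3, Ndufa10, Ndufb10 and Ndufb9 of complex I, Sdhb of complex II, Uqcrb of complex III and Cox6c of complex IV rose by 1.31 to 1.64 fold. Cox6b2, a testis isoform of a complex IV subunit, fell, and no gene of ATP synthase passed the test. The summed level of the 98 genes was 68531, 61308 and 69442 TPM in DSS libraries, against 56787, 55724 and 55307 TPM in control libraries, a ratio of means of 1.19. They thus made up 6.64% of all TPM in DSS organoids and 5.59% in control organoids.

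Of the 98 genes, 92 had a mean of at least 1 TPM and were tested. Cox4i2, Cox7b2, Cox8b, Cox8c and Ndufa11b were listed at 0 in all 6 libraries, and Ndufs6b was listed at 0.47 TPM in DSS replicate 1 and at 0 elsewhere. Of the 92, 7 (7.61%) rose and 1 fell by limma, beside 6.45% and 3.89% of all tested genes (10.3% in either direction), so the share past the threshold lay near the background. The sign of the difference was more uniform. The log2 fold change was above 0 for 85 of the 92 genes (92.4%), beside 55.7% of all tested genes, and its median was 0.20 (1.15 fold), beside 0.05 over all tested genes. The 3 DSS values lay above the 3 control values for 44 of the 92 genes (47.8%), beside 21.1% of all tested genes, and below them for 2 genes, beside 15.3%. Of these 2, Cox6a2 passed the filter only through control libraries. At an unadjusted p below 0.05, 30 of the 92 were higher and 2 lower. Of all 11643 tested genes, 2104 (18.1%) were higher and 1342 lower at that level. The respiratory chain genes were more abundant than most, with a median mean of 460 TPM, beside 18.3 TPM over all tested genes. They also varied less between libraries, with a median CV of 7.94% (DSS) and 4.76% (control), beside 18.0% and 9.08%. Genes with less spread separate at smaller differences, so these shares, also by complex below, are not set beside genes of like level. No test was made on the group as a whole, because the genes were proposed with earlier results of these data known.

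The 8 calls depended on single libraries. Leaving out DSS replicate 3, control replicate 2 or control replicate 3 left none of the 92 genes past the limma threshold. At an unadjusted p below 0.05, 19, 14 and 15 were higher and 2, 2 and 2 lower in these fits. The share of all tested genes at that level was not computed for these fits, so these counts have no background. Leaving out control replicate 1 left Ndufv3 alone past the threshold. Leaving out DSS replicate 1 gave 13 genes higher and 1 lower, and leaving out DSS replicate 2 gave 20 higher and 1 lower. The number of all genes called also varied widely between these fits, as given below, so these counts are not read against the main analysis. The medians of complexes I to IV and of ATP synthase stayed above 0 in each of the 14 alternatives tried, including those that left out a library.

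**Figure D1:**
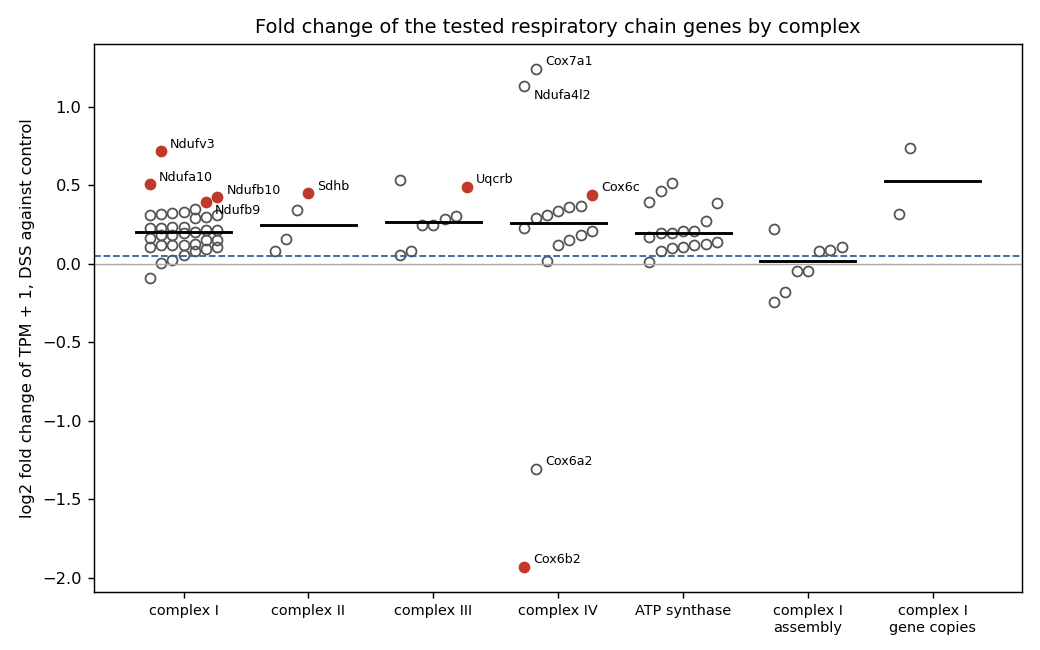
Log2 fold change of TPM + 1 (DSS against control) of each of the 92 tested genes, by complex. Filled red points are the 8 genes past the limma threshold, open points the other genes, black bars the median of each group, and the dashed line the median of all 11643 tested genes (0.05). The medians of complexes I to IV and ATP synthase lie between 0.20 and 0.26, that of the assembly factors at 0.02, and Cox7a1, Ndufa4l2, Cox6a2 and Cox6b2 stand far from the other complex IV genes.

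Start regions are shown for the 4 genes that the results turn on most: Ndufv3, the gene with the smallest adjusted p, Sdhb, the called gene of complex II, Cox6b2, the gene that fell, and Cox7a1, the gene with the largest positive fold change among those tested. Each line gives the 100 bases before and the 50 bases after the transcription start in RefSeq (GRCm38.p6), 5′ to 3′ on the gene's strand. The build differs from that of the deposited values, which were made on GRCm39. Capitals mark matches, on either strand, to the letters of an NRF-1 site (GCATGCGC), an ETS site of the kind bound by GABP (CCGGAAG), a YY1 site (AANATGGCG), a GC box (GGGCGG) or a CCAAT box (CCAAT), and no matches overlap in these stretches. NRF-1 and GABP are known as activators of nuclear respiratory genes.
Ndufv3, chr17:31520015-31520164, plus strand: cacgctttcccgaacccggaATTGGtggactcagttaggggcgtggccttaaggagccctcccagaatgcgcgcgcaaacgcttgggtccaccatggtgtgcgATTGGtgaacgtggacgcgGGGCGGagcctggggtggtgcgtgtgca
Sdhb, chr4:140961171-140961320, plus strand: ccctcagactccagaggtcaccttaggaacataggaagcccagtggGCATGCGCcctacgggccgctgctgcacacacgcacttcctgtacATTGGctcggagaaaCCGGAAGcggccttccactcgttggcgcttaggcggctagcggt
Cox6b2, chr7:4753045-4753194, minus strand: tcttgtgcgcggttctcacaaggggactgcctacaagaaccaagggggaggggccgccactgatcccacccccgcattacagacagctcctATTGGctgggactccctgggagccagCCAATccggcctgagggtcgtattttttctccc
Cox7a1, chr7:30184071-30184220, plus strand: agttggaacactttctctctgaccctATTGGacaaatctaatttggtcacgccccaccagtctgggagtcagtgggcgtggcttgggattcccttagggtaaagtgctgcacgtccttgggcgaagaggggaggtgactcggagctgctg
The stretch of Sdhb held 1 NRF-1 match, 1 ETS match and 1 CCAAT box, and that of Ndufv3 held a GC box and 2 CCAAT boxes. Those of Cox6b2 and Cox7a1 held only CCAAT boxes, 2 and 1. The same stretches of Ndufa10 and Ndufb10, which also rose, held no match. Windows of 300 bases, 250 before and 50 after the start, were found for 78 of the 98 genes and for 5 of the 8 past the threshold. The NRF-1 letters stood in 15.4% of the 78 windows, in 3.05% of those of all 27025 genes with a window and in 6.06% of those of 9327 tested genes. ETS letters stood in 24.4% of the 78 windows, in 9.93% of all windows and in 21.4% of those of tested genes. In the same order, YY1 letters stood in 14.1%, 2.76% and 6.36%, GC boxes in 44.9%, 38.2% and 68.7%, and CCAAT boxes in 43.6%, 41.1% and 43.3%. A match describes the letters of the window and is not a binding site.

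Complex I carried 4 of the 7 genes that rose, which is 10.8% of its 37 tested genes, beside 6.45% of all tested genes. All 4 were accessory subunits, which surround the core that carries out catalysis. They were 13.3% of the 30 accessory genes. With 7 core genes at that background, the absence of a core gene says little, and core and accessory subunits were not compared by a test. Ndufv3 was listed at 533, 488 and 517 TPM in DSS organoids, against 350.0, 308 and 280.4 TPM in control organoids, a log2 difference of 0.72 ± 0.11 (SE) with a limma adjusted p of 0.0163. Ndufv3 belongs to the arm that binds NADH, and its lowest DSS value lay well above its highest control value. Ndufa10 had 278, 278 and 309 TPM in DSS organoids, against 191, 204 and 214 TPM in control organoids, giving a limma log2 fold change of 0.50 ± 0.09 (SE) at an adjusted p of 0.0252. Ndufa10 lies on the matrix side of the membrane arm, and DSS replicates 1 and 2 were nearly equal and well above control replicate 3. Ndufb10 measured 539, 478 and 544 TPM in DSS organoids, against 386, 374 and 402 TPM in control organoids, a DSS minus control difference of 0.42 ± 0.09 (SE) on the log2 scale (limma adjusted p = 0.0360). Ndufb9 was listed at 644, 672 and 709 TPM in DSS organoids, against 522, 529 and 489 TPM in control organoids, a log2 difference of 0.39 ± 0.08 (SE) with a limma adjusted p of 0.0360. Both are subunits of the membrane arm, and neither overlapped between groups.

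The 37 genes of complex I had a median log2 fold change of 0.20, and 36 of them lay above 0. Groups did not overlap for 20 of the 37 (54.1%), each higher in DSS organoids, beside 21.1% of all tested genes. Summed over the complex, the level was 15113 ± 535 TPM in DSS organoids and 12941 ± 225 TPM in control organoids (SD, n = 3 each), a ratio of 1.17. Ndufa3, an accessory subunit, was the most abundant of them. Ndufa3 had 1248, 1094 and 1059 TPM in DSS organoids, against 1002, 911 and 1012 TPM in control organoids, giving a limma log2 fold change of 0.22 ± 0.10 (SE) at an adjusted p of 0.200, past no threshold although the groups did not overlap. Ndufa12, an accessory subunit of the matrix arm, was the exception in direction. Ndufa12 measured 237, 222 and 241 TPM in DSS organoids, against 254, 253 and 239 TPM in control organoids, a DSS minus control difference of -0.09 ± 0.08 (SE) on the log2 scale (limma adjusted p = 0.529), and the groups overlapped.

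The core subunits of complex I hold the NADH site and the iron-sulfur clusters, and none of those named here passed the limma threshold. Beside 6.45% of all tested genes called higher, this lies near the background for so few genes. Ndufv1 was listed at 258, 245 and 295 TPM in DSS organoids, against 216, 208 and 211 TPM in control organoids, a log2 difference of 0.32 ± 0.10 (SE) with a limma adjusted p of 0.0853. Ndufv1 binds NADH, and its groups did not overlap. Ndufv2 had 190.2, 191 and 187 TPM in DSS organoids, against 162, 162 and 158 TPM in control organoids, giving a limma log2 fold change of 0.24 ± 0.08 (SE) at an adjusted p of 0.105. Ndufv2 holds an iron-sulfur cluster, and its groups were separate as well. Ndufs8, which holds iron-sulfur clusters, was separate by less than Ndufv1 and Ndufv2, with DSS values between 297.3 and 318 TPM and control values between 291 and 297.2 TPM. Ndufs1, Ndufs3 and Ndufs7 overlapped between groups, with log2 fold changes of 0.15, 0.09 and 0.00. For Ndufs7 the interval of the log2 fold change ran from -0.34 to 0.35, so a rise or fall of that size was not resolved.

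Assembly factors of complex I had a median near 0. Of the 8 Ndufaf genes, 4 had log2 fold changes above 0 and 4 below, with a median of 0.02, and none passed the limma threshold or an unadjusted p of 0.05. Their levels were low, with a median mean of 28.8 TPM, beside 367 TPM for the 37 subunits. Ndufaf8 was the most abundant and had the highest fold change of the 8. Ndufaf8 measured 142, 165 and 155 TPM in DSS organoids, against 127, 126 and 142 TPM in control organoids, a DSS minus control difference of 0.22 ± 0.10 (SE) on the log2 scale (limma adjusted p = 0.196). Ndufaf6 had the lowest, with 25.2, 35.1 and 25.5 TPM in DSS organoids against 29.9, 31.4 and 40.7 TPM in control organoids, a log2 difference of -0.25 ± 0.18 (SE) with a limma adjusted p of 0.403. The difference between subunits and assembly factors was not tested. Of the gene copies, Ndufb4c was listed at 279, 204 and 271 TPM in DSS organoids, against 209, 191 and 199 TPM in control organoids, giving a limma log2 fold change of 0.31 ± 0.14 (SE) at an adjusted p of 0.183. Ndufb4b was listed at 1.40, 5.37 and 0 TPM in DSS organoids, against 0, 0 and 2.30 TPM in control organoids. RSEM divides reads that match several copies by estimation, so the values of Ndufb4, Ndufb4b and Ndufb4c are uncertain.

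Complex II consists of 4 subunits and also serves the TCA cycle, where it oxidizes succinate. All 4 had log2 fold changes above 0, and the summed level was 1649.6 ± 86.4 TPM in DSS organoids and 1366 ± 9.80 TPM in control organoids, a ratio of 1.21. Sdhb was listed at 384, 423 and 445 TPM in DSS organoids, against 292, 301 and 325 TPM in control organoids, a DSS minus control difference of 0.45 ± 0.10 (SE) on the log2 scale (limma adjusted p = 0.0361). Sdhb carries the iron-sulfur clusters, and its groups were well apart. Sdhd had 580.5, 414 and 535 TPM in DSS organoids, against 406, 399 and 386 TPM in control organoids, a log2 difference of 0.34 ± 0.14 (SE) with a limma adjusted p of 0.149. Sdhd, a membrane anchor, was separate between groups but spread more among DSS libraries, with DSS replicate 2 lowest. The other anchor, Sdhc, had 365, 366 and 406 TPM in DSS organoids, against 329.6, 345 and 346 TPM in control organoids, giving a limma log2 fold change of 0.15 ± 0.09 (SE) at an adjusted p of 0.285. Sdha, the flavoprotein that oxidizes succinate, overlapped between groups, with 301, 371 and 358 TPM in DSS organoids, against 328, 324 and 318 TPM in control organoids, a DSS minus control difference of 0.08 ± 0.10 (SE) on the log2 scale (limma adjusted p = 0.650). Here DSS replicate 1 was the lowest of all 6 libraries.

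Complex III had the highest ratio of summed levels, 7025 ± 865 TPM in DSS organoids and 5573 ± 337 TPM in control organoids, a ratio of 1.26. All 8 genes had log2 fold changes above 0, beside 55.7% of all tested genes, with a median of 0.26. The groups of Uqcrb and Uqcrc1 were separate, which is 25% of the 8 and near the 21.1% of all tested genes. Uqcrb measured 1145, 1132 and 1244 TPM in DSS organoids, against 833, 861 and 811 TPM in control organoids, a log2 difference of 0.49 ± 0.08 (SE) with a limma adjusted p of 0.0205. Uqcrb, a small subunit near the ubiquinone site, had the smallest adjusted p of the complex, and its groups were far apart. Uqcrh was listed at 1458, 608 and 1144 TPM in DSS organoids, against 788, 686 and 622 TPM in control organoids, giving a limma log2 fold change of 0.53 ± 0.31 (SE) at an adjusted p of 0.297. Uqcrh, the hinge protein that faces cytochrome c, had the largest fold change of the complex, but DSS replicate 2 lay below all 3 control libraries while DSS replicates 1 and 3 lay far above them. Without DSS replicate 2 its log2 fold change was 0.89 and passed the threshold (limma adjusted p = 0.0181, range over its 14 alternatives 0.0181 to 0.701). Leaving out the DSS library below control favours a rise, so this fit is no support for one. Uqcr10 had 1732, 1472 and 1791 TPM in DSS organoids, against 1529, 1372 and 1206 TPM in control organoids, a DSS minus control difference of 0.28 ± 0.12 (SE) on the log2 scale (limma adjusted p = 0.183). Uqcr10, a small subunit, was the most abundant of the 8 and overlapped between groups. The catalytic Rieske protein Uqcrfs1 had the lowest fold change, with 424, 501 and 549 TPM in DSS organoids, against 495, 466 and 450.1 TPM in control organoids, a log2 difference of 0.06 ± 0.12 (SE) with a limma adjusted p of 0.789. Its sign turned after median-ratio scaling and without DSS replicate 3, so no direction is given for it.

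**Figure D2:**
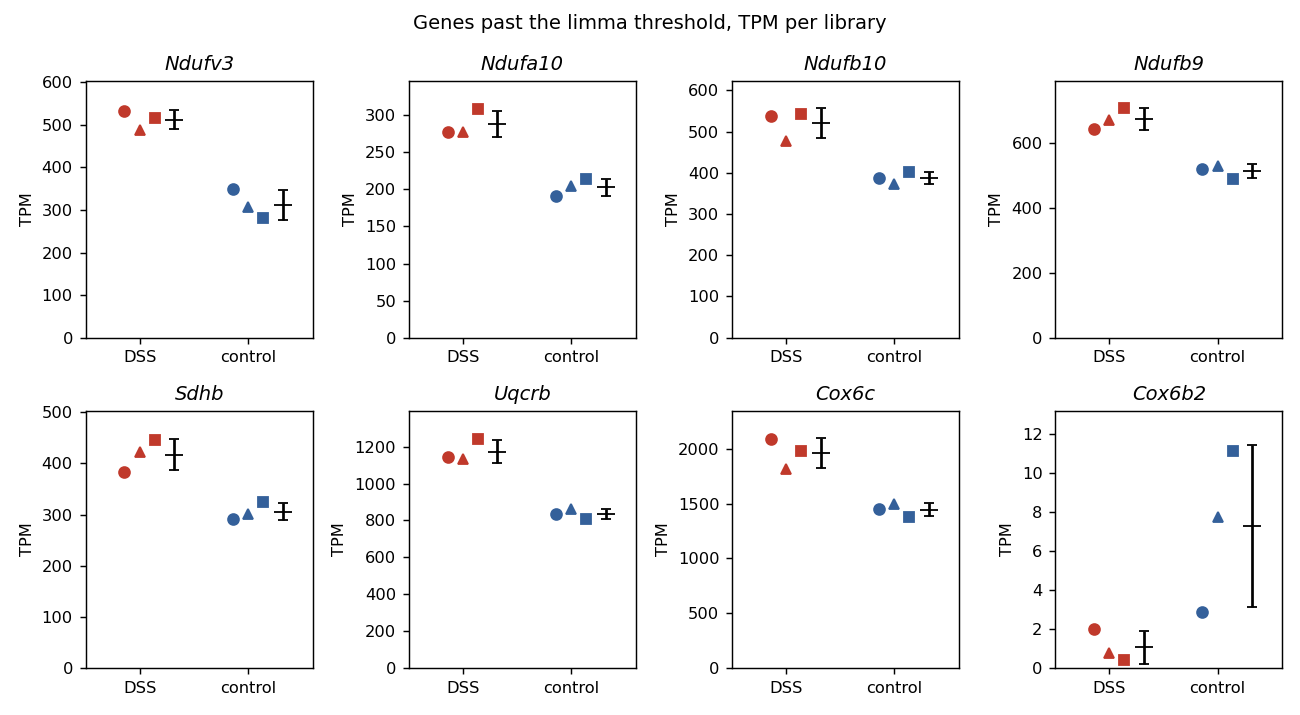
TPM of the 8 genes past the limma threshold in each library (circle, triangle and square for replicates 1, 2 and 3, red for DSS and blue for control), with mean and SD (n = 3) beside them. The 3 DSS values lie above the 3 control values for 7 genes and below them for Cox6b2, whose highest DSS value is 2.00 TPM and lowest control value 2.87 TPM.

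Complex IV held the widest range of fold changes, and several of its subunits have a second isoform made in few tissues. The summed level of its 20 genes was 20449 ± 1083 TPM in DSS organoids and 16731 ± 618 TPM in control organoids, a ratio of 1.22. Of the 16 tested, 8 were separate and higher, beside 21.1% of all tested genes, and 2 were separate and lower, beside 15.3%. Of these 2, Cox6a2 passed the filter only through control libraries. Cox6c measured 2087, 1819 and 1978 TPM in DSS organoids, against 1452, 1502 and 1382 TPM in control organoids, giving a limma log2 fold change of 0.44 ± 0.09 (SE) at an adjusted p of 0.0310. Cox6c, a small subunit with no second isoform, was the complex IV gene that rose. Cox6a1 was listed at 3745, 3587 and 4058 TPM in DSS organoids, against 3288, 2908 and 3004 TPM in control organoids, a DSS minus control difference of 0.31 ± 0.09 (SE) on the log2 scale (limma adjusted p = 0.0796). Cox6a1, the common isoform of subunit 6A, was the most abundant of all 98 genes and separate between groups without passing the threshold. The common isoforms Cox4i1, Cox8a and Cox7b were also separate and higher, with log2 fold changes of 0.36, 0.33 and 0.29 and limma adjusted p of 0.0670, 0.0930 and 0.0900.

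The minor isoforms are given beside their common partners, and the difference between isoform and partner was not tested. Cox6a2, Cox7a1 and Cox8b are known as isoforms of heart and skeletal muscle, and Cox6b2 as that of testis. Cox6b2 had 2.00, 0.740 and 0.420 TPM in DSS organoids, against 2.87, 7.76 and 11.1 TPM in control organoids, a log2 difference of -1.93 ± 0.47 (SE) with a limma adjusted p of 0.0491. The highest DSS value lay just under the lowest control value, and levels were low, so that the fold change depended on the pseudocount and was -2.72 with a pseudocount of 0.1. Cox6a2 measured 0, 1.12 and 0.610 TPM in DSS organoids, against 2.10, 1.91 and 4.73 TPM in control organoids, giving a limma log2 fold change of -1.31 ± 0.38 (SE) at an adjusted p of 0.0765. The groups did not overlap. With a DSS mean of 0.577 TPM and a control mean of 2.91 TPM, Cox6a2 passed the filter only through control libraries. Without DSS replicate 2, its highest DSS library, the limma adjusted p was 0.0452 (range over its 13 alternatives 0.0452 to 0.207). Leaving out that library favours a fall, so this fit is no support for one. Cox6a2 made up at most 0.0312% of the summed Cox6a1 and Cox6a2 level in DSS libraries and at least 0.0638% in control libraries. Cox6b1, the common partner of Cox6b2, was listed at 2155, 1400.1 and 1967 TPM in DSS organoids, against 1573, 1366 and 1289.7 TPM in control organoids, a DSS minus control difference of 0.37 ± 0.17 (SE) on the log2 scale (limma adjusted p = 0.217).

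Cox7a1 was listed at 46.6, 194 and 134 TPM in DSS organoids, against 40.8, 43.5 and 50.0 TPM in control organoids, a log2 difference of 1.24 ± 0.48 (SE) with a limma adjusted p of 0.143. DSS replicates 2 and 3 were far above every control library, while DSS replicate 1 lay within the control range. Without DSS replicate 1 the log2 fold change was 1.83 and passed the threshold (limma adjusted p = 0.00421, range over its 14 alternatives 0.00421 to 0.340). Leaving out the DSS library at the control level favours a rise, so this fit is no support for one. Cox7a1 made up 7.32%, 27.8% and 19.2% of the summed Cox7a1 and Cox7a2 level in DSS libraries, against 7.68%, 7.65% and 8.91% in control libraries. The common partner Cox7a2 was listed at 589.9, 505 and 564 TPM in DSS organoids, against 491, 526 and 511 TPM in control organoids, giving a limma log2 fold change of 0.12 ± 0.09 (SE) at an adjusted p of 0.444. Cox7a2l, a related protein known from supercomplexes of the chain, had a log2 fold change of 0.02 with an interval from -0.18 to 0.21. Ndufa4l2 had 7.79, 15.8 and 5.28 TPM in DSS organoids, against 5.40, 4.32 and 1.59 TPM in control organoids, a DSS minus control difference of 1.13 ± 0.46 (SE) on the log2 scale (limma adjusted p = 0.158). Ndufa4l2 is known as a hypoxia-induced gene, and DSS replicate 3 lay just under the highest control library. Ndufa4, its abundant partner, had 1249, 927 and 1293 TPM in DSS organoids, against 1046, 997 and 1051 TPM in control organoids, a log2 difference of 0.15 ± 0.14 (SE) with a limma adjusted p of 0.519. Markers of muscle summed to 0.18, 0.42 and 0.02 TPM in DSS libraries, against 0.76, 1.51 and 0.34 TPM in control libraries, with Cnn1, Myh6 and Actc1 at 0 in all 6. Markers of male germ cells summed to at most 0.12 TPM in DSS libraries and 0.22 TPM in control libraries.

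**Figure D3:**
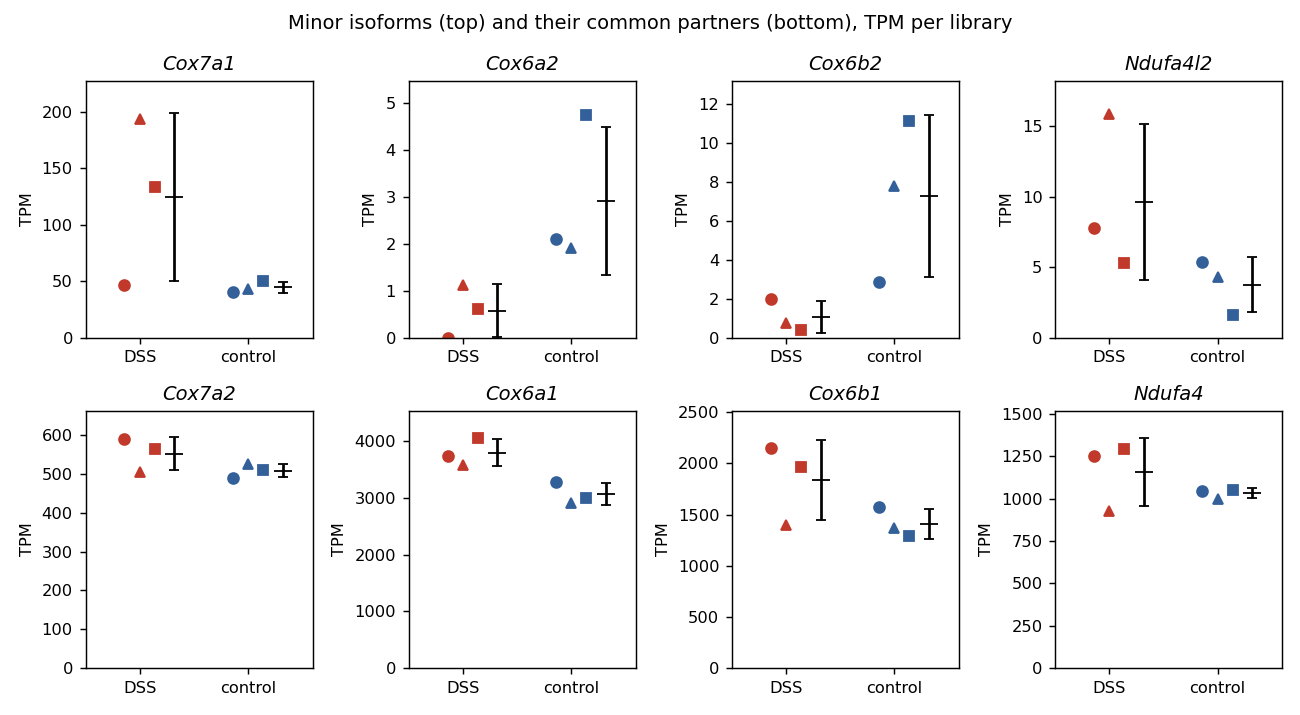
TPM per library of 4 minor complex IV isoforms (top) and their common partners (bottom), with mean and SD (n = 3). Circles, triangles and squares are replicates 1, 2 and 3 of DSS (red) and control (blue) organoids, and each panel has its own axis starting at 0. Cox7a1 is high in DSS replicates 2 and 3 and at the control level in DSS replicate 1, while Cox6a2 and Cox6b2 are lower in all 3 DSS libraries.

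None of the ATP synthase genes passed the limma threshold, while 5 of the 17 were higher at an unadjusted p below 0.05, beside 18.1% of all tested genes. All 17 log2 fold changes lay above 0, with a median of 0.20, and 9 genes (52.9%) were separate and higher in DSS organoids, beside 21.1% of all tested genes. The summed level was 21588 ± 1953 TPM in DSS organoids and 18799 ± 108 TPM in control organoids, a ratio of 1.15. Atp5k measured 1536, 936 and 1339 TPM in DSS organoids, against 1003, 846 and 774 TPM in control organoids, giving a limma log2 fold change of 0.52 ± 0.20 (SE) at an adjusted p of 0.140. Atp5k, which encodes subunit e of the membrane part, had the largest fold change of the complex, and its DSS replicate 2 lay under control replicate 1. Atp5b was listed at 2426, 2560.0 and 2654 TPM in DSS organoids, against 2367, 2406 and 2450.0 TPM in control organoids, a DSS minus control difference of 0.08 ± 0.08 (SE) on the log2 scale (limma adjusted p = 0.537). Atp5b, the catalytic beta subunit, was the most abundant of the 17, and its groups overlapped slightly. The gamma subunit gene Atp5c1 of the central stalk was separate, with 657, 541 and 659.8 TPM in DSS organoids, against 482, 466 and 466 TPM in control organoids, a log2 difference of 0.39 ± 0.10 (SE) with a limma adjusted p of 0.0637.

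The ring of subunit c, through which protons flow, is encoded by 3 genes for the same mature protein. Atp5g3 was the most abundant of them and made up 48.6%, 45.2% and 50.3% of their summed level in DSS libraries, against 47.2%, 47.6% and 47.1% in control libraries. The log2 fold changes of Atp5g1, Atp5g3 and Atp5g2 were 0.20, 0.14 and 0.01, none past the threshold. Atp5g2 had the lowest fold change of the complex, with 913, 907 and 955 TPM in DSS organoids, against 870.1, 932 and 949.9 TPM in control organoids, and its sign turned with the scaling. These genes have processed copies in the genome, which adds uncertainty to their values. Atpif1, the inhibitor that stops ATP synthase from running backwards, is not among the 98 names. Atpif1 had 499.8, 469 and 501 TPM in DSS organoids, against 320.0, 343 and 359 TPM in control organoids, giving a limma log2 fold change of 0.52 ± 0.09 (SE) at an adjusted p of 0.0201. All 3 DSS values lay above the control values, and the gene rose. Its limma adjusted p was 0.114 without control replicate 2 and also lay above 0.05 without DSS replicate 3, control replicate 1 or control replicate 3 (0.0872, 0.0843 and 0.0687) and with the replicate block (0.0579).

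**Figure D4:**
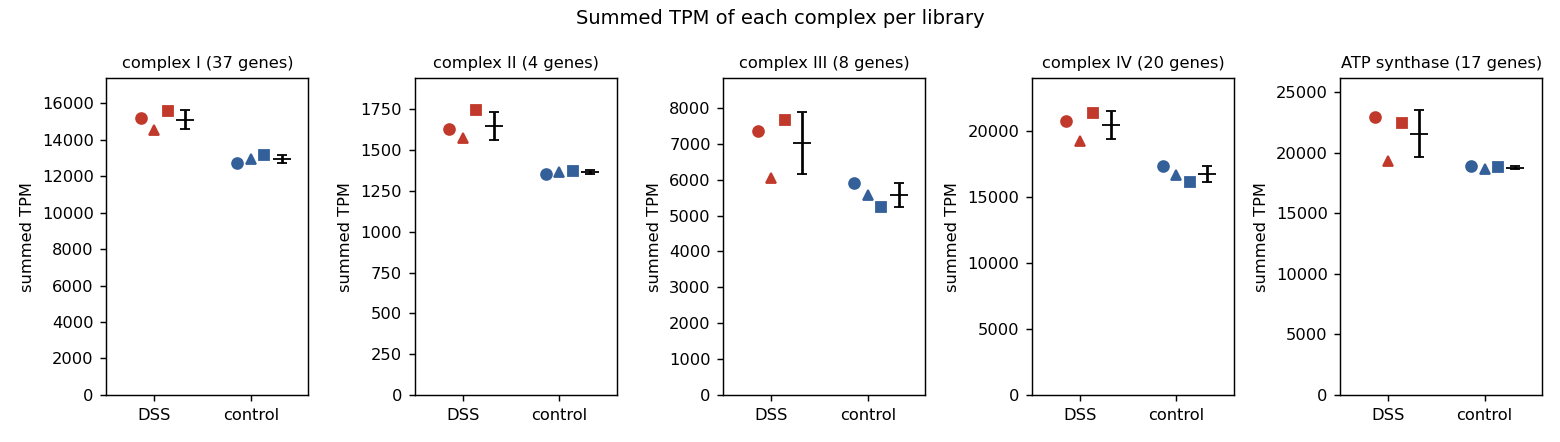
Summed TPM of the genes of each complex per library, with mean and SD (n = 3). Circles, triangles and squares are replicates 1, 2 and 3 of DSS (red) and control (blue) organoids. In each of the 5 panels all 3 DSS libraries lie above the 3 control libraries, and DSS replicate 2 is the lowest DSS library.

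The DSS libraries did not share the difference evenly. DSS replicate 2 was the lowest of the DSS libraries for 55 of the 92 genes (59.8%), beside 36.4% of all tested genes, and DSS replicate 3 was the highest for 49 (53.3%), beside 29.3%. The median of the 92 genes lay 0.24, 0.11 and 0.28 above the control mean on the log2 scale in DSS replicates 1, 2 and 3. Cycling cell markers were lowest among DSS libraries in DSS replicate 2, and myeloid markers were highest there. Absorptive colonocyte markers summed to 2367, 8774 and 8609 TPM in DSS replicates 1, 2 and 3, against 5345 to 9404 TPM in control libraries. Goblet markers summed to 5205, 1753 and 2265 TPM, against 1938 to 3489 TPM. The lowest sum of epithelial markers, 14549 TPM, was that of DSS replicate 1. The part of these cell types in the result was not tested. The genes furthest down in DSS replicate 2 relative to the mean of DSS replicates 1 and 3 were Uqcrh with -1.09, Ndufaf2 with -0.86, Atp5md with -0.62, Atp5k with -0.61 and Cox6b1 with -0.56 on the log2 scale. Cox7a1 and Ndufa4l2 stood furthest the other way among genes with a matched length, with 1.28 and 1.18.

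Respiratory chain transcripts are short, so their values are given beside those of all tested genes of like length. The respiratory chain genes are counted among these, 36 of the 332 genes under 700 bases. The 89 tested genes with a matched transcript had a median length of 809 bases, beside 2769 bases over all tested genes, and 40.4% of them lay under 700 bases, beside 2.96%. All tested genes under 700 bases had a median log2 fold change of 0.15, beside 0.22 for the 36 respiratory chain genes of that class. Between 700 and 1500 bases the median was 0.04 for all tested genes and 0.20 for the 36 respiratory chain genes, and between 1500 and 3000 bases it was 0.04 and 0.20, with 14 respiratory chain genes. Genes under 700 bases as a whole lay 0.25, 0.05 and 0.15 above the control mean in DSS replicates 1, 2 and 3. Across the 89 genes, Spearman's rho between length and the difference of DSS replicate 2 from the other DSS libraries was 0.26, beside 0.14 over all tested genes. That between length and the log2 fold change was -0.23 over the 89 genes and -0.0036 over all tested genes. These are descriptions over genes of the same libraries. The part of transcript length in these values was not tested further.

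**Figure D5:**
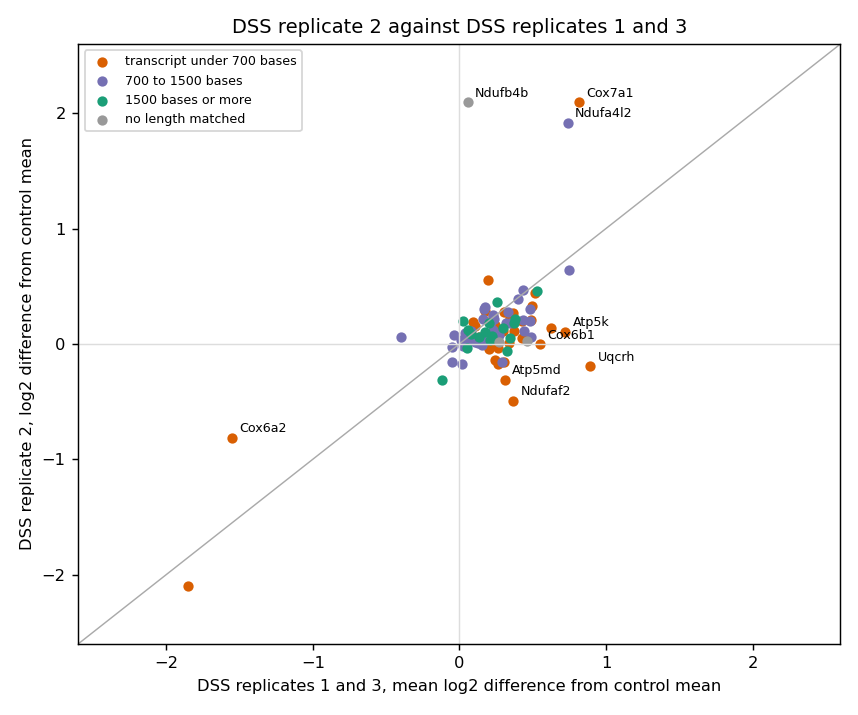
Log2 difference from the control mean of each tested gene in DSS replicate 2 (vertical) against the mean of DSS replicates 1 and 3 (horizontal), coloured by transcript length. Most genes lie right of 0 and under the diagonal line of equal values, that is, they are higher than control in DSS replicates 1 and 3 and less so in DSS replicate 2. Uqcrh, Atp5md and Ndufaf2 fall below 0 in DSS replicate 2. Ndufb4b, a low gene with no matched length, lies furthest above the line, and Cox7a1 and Ndufa4l2 also lie far above it.

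Genes that serve the chain without being part of it are given for comparison. Over 10 lists with 138 tested genes, 5 rose and 4 fell by limma, shares no higher than the 6.45% and 3.89% of all tested genes, with a median log2 fold change of 0.04, near that of all tested genes. All 9 calls were lost without control replicate 2, with limma adjusted p of 0.0684 to 0.188, 8 without control replicate 1 and 7 each without DSS replicate 3 or control replicate 3. The electron carriers and ubiquinone genes had a median of 0.16 over 21 genes, and none passed the threshold. At an unadjusted p below 0.05, 7 were higher and 3 lower, beside 2104 (18.1%) higher and 1342 lower of all 11643 tested genes. Cyc1 measured 627, 578 and 658 TPM in DSS organoids, against 504, 535 and 537 TPM in control organoids, a DSS minus control difference of 0.24 ± 0.09 (SE) on the log2 scale (limma adjusted p = 0.131). Cycs was listed at 197, 222 and 236 TPM in DSS organoids, against 179.9, 180.1 and 186 TPM in control organoids, a log2 difference of 0.26 ± 0.10 (SE) with a limma adjusted p of 0.138. Cyc1, the cytochrome subunit of complex III that the name rule misses, and Cycs, cytochrome c, were both separate between groups without passing the threshold. The list of Vdac channel, mitochondrial import, membrane shape, chaperone and protease genes was lower in its summed level. That level ran from 5221 to 5532 TPM in DSS libraries, against 5801 to 6138 TPM in control libraries. Its genes went in both directions, with a median log2 fold change of -0.11, so the sum does not describe each kind of gene. None of these 22 genes passed the limma threshold, and 3 were lower at an unadjusted p below 0.05, beside 1342 of all 11643 tested genes.

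In complex IV assembly 2 of 27 genes rose and 2 fell, beside 6.45% and 3.89% of all tested genes. Sco2 had 16.2, 21.9 and 24.9 TPM in DSS organoids, against 54.2, 54.3 and 51.7 TPM in control organoids, giving a limma log2 fold change of -1.33 ± 0.16 (SE) at an adjusted p of 0.0108. Sco2 delivers copper to complex IV, and its DSS values were all far below the control values. Surf1 measured 89.8, 88.1 and 91.4 TPM in DSS organoids, against 55.4, 66.8 and 66.2 TPM in control organoids, a DSS minus control difference of 0.51 ± 0.11 (SE) on the log2 scale (limma adjusted p = 0.0332). Coa7 was listed at 10.5, 13.6 and 12.7 TPM in DSS organoids, against 22.3, 22.7 and 19.1 TPM in control organoids, a log2 difference of -0.76 ± 0.14 (SE) with a limma adjusted p of 0.0242. Surf1 and Coa7 are assembly factors, and Surf1 rose while Coa7 fell. Cmc1, which acts early in complex IV assembly, rose, with 39.1, 33.2 and 37.0 TPM in DSS organoids, against 28.2, 23.7 and 23.7 TPM in control organoids, giving a limma log2 fold change of 0.52 ± 0.12 (SE) at an adjusted p of 0.0434. The lists for assembly of complexes I, II and III and of ATP synthase, with 10, 4, 6 and 7 tested genes, held none past the limma threshold. At an unadjusted p below 0.05 they held 1, 1, 0 and 1 higher and 3, 0, 0 and 1 lower. Of all 11643 tested genes, 2104 (18.1%) were higher and 1342 lower at that level.

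In the TCA cycle 2 of 14 genes rose, beside 6.45% of all tested genes. Idh2 had 181, 116 and 150.3 TPM in DSS organoids, against 56.4, 50.2 and 65.5 TPM in control organoids, a DSS minus control difference of 1.35 ± 0.18 (SE) on the log2 scale (limma adjusted p = 0.0127). Suclg1 measured 454, 378 and 407 TPM in DSS organoids, against 304, 295 and 294 TPM in control organoids, a log2 difference of 0.47 ± 0.10 (SE) with a limma adjusted p of 0.0323. Idh2, the mitochondrial NADP-dependent isocitrate dehydrogenase, had a larger fold change than any respiratory chain gene that rose, and Suclg1, a subunit of succinyl-CoA ligase, makes the succinate that complex II oxidizes. Gpx4, which reduces lipid peroxides, was the gene that rose among 9 of oxidant defence, with 662, 652 and 653 TPM in DSS organoids, against 530.0, 527 and 511 TPM in control organoids, giving a limma log2 fold change of 0.33 ± 0.08 (SE) at an adjusted p of 0.0429.

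Regulators of mitochondrial genes had a median log2 fold change of 0.0017. Of the 18, Myc and Pprc1 fell, beside 3.89% of all tested genes, and none rose by limma, while Nrf1 was higher at an unadjusted p below 0.05. Myc was listed at 47.4, 33.1 and 27.1 TPM in DSS organoids, against 99.8, 122 and 129 TPM in control organoids, a DSS minus control difference of -1.71 ± 0.21 (SE) on the log2 scale (limma adjusted p = 0.0112). Pprc1 had 12.3, 15.2 and 14.6 TPM in DSS organoids, against 19.7, 20.9 and 20.7 TPM in control organoids, a log2 difference of -0.52 ± 0.12 (SE) with a limma adjusted p of 0.0413. Myc is a growth regulator that also acts on mitochondrial genes, Pprc1 a coactivator of the PGC-1 family, and both were lower in every DSS library than in any control library. Ppargc1a measured 2.75, 3.61 and 3.22 TPM in DSS organoids, against 5.36, 4.35 and 5.63 TPM in control organoids, giving a limma log2 fold change of -0.54 ± 0.16 (SE) at an adjusted p of 0.0805. Nrf1 was listed at 23.0, 23.2 and 23.2 TPM in DSS organoids, against 18.5, 18.7 and 18.1 TPM in control organoids, a DSS minus control difference of 0.31 ± 0.09 (SE) on the log2 scale (limma adjusted p = 0.0823). Ppargc1a, the PGC-1 alpha coactivator, and Nrf1, the factor behind the NRF-1 letters, were separate in opposite directions without passing the threshold. Gabpa, Esrra and Tfam overlapped between groups, with log2 fold changes of 0.15, -0.15 and 0.12, and the signs of Esrra and Tfam turned without DSS replicate 1.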

How the data were processed

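RNA of colonic organoids was sequenced from 1 library per mouse, 3 DSS and 3 control, prepared with the NEBNext Ultra II kit. The authors deposited 1 table of TPM values for 40840 genes. The tools named in the submitters' processing notes were RSEM 1.3.1, STAR 2.7.7a and 2.7.10a, cutadapt 3.5 and Trim Galore 0.6.7, with genome build GRCm39. Because TPM are shares of a fixed total, they hold no sequencing depth. Strand use is not given in the sources used here, and antisense overlaps may share reads. RSEM shares reads among near-identical copies. No pair of libraries had more than 75 equal values among the 11643 tested genes.

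The main test was a two-sided limma 3.58.1 fit (R 4.3.3, eBayes with trend) of log2(TPM + 1) on genes with a mean of at least 1 TPM, with Benjamini-Hochberg adjustment over all genes tested and a threshold of 0.05. Fold changes on this scale understate the change of low genes. SE is limma's moderated error, and intervals are 95%. No other covariate was fitted. The fit was tested on simulated data. Further steps used Python 3.11.15, pandas 2.3.3 and matplotlib 3.10.9. Transcript lengths are medians over GENCODE vM21 transcripts linked to the table's accessions, and the length classes were chosen after seeing the data. Start regions came from RefSeq (GRCm38.p6).

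The genes and all lists were chosen with earlier results of these data known. Named were every gene past the threshold, the most abundant gene and the largest rise and fall of each complex, the Sdh genes, isoform sets, the core subunits of complex I, and in each pathway list up to 5 genes past the threshold with Cyc1, Cycs, Ppargc1a, Nrf1, Gabpa, Tfam, Myc and Esrra. The Ndufaf genes, gene copies, Atp5c1, Uqcrc1, Atp5md and marker genes were named after their values were seen. A result that the rule would name is not reported here. Alternatives were a pseudocount of 0.1, no filter, a mean of at least 5 TPM, quantile normalization, median-ratio scaling, limma without trend, the replicate number as a block, and leaving out libraries.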

Additional observations from a re-analysis of the deposited data

How the results depend on the processing

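The median log2 fold change of the respiratory chain genes stayed between 0.14 and 0.24 in all 14 alternatives, while the calls did not hold. The main analysis called 7 genes higher and 1 lower, and 1204 of all genes. Without a filter these were 3, 0 and 759. No gene was called lower with a mean of at least 5 TPM, which leaves Cox6b2 untested, or after median-ratio scaling. Limma without trend called 3 higher and 0 lower. Leaving out 1 library gave 0 to 20 higher, 0 to 1 lower and 44 to 2515 of all genes called. Among all calls the share of higher genes was 62.4% on TPM, 48.2% (564 higher, 606 lower) after quantile normalization and 51.4% (622 higher, 588 lower) after median-ratio scaling, and 81 and 79 of the 92 genes then had log2 fold changes above 0. The cause of these differences was not tested.

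Of 781 alternative values of single named genes, 639 kept their sign and side of the threshold, 113 no longer passed it, 12 newly passed it and 17 turned sign. Those that turned were near 0. After quantile normalization they were Atp5g2 (-0.060), Cox7a2l (-0.039) and Ndufs7 (-0.041), and after median-ratio scaling Atp5g2 (-0.048), Cox7a2l (-0.043), Ndufs7 (-0.057) and Uqcrfs1 (-0.0045). Leaving out 1 library gave -0.025 to 0.038 for Atp5g2, -0.018 to 0.054 for Cox7a2l, -0.25 to 0.019 for Esrra, -0.11 to 0.11 for Ndufs7, -0.016 to 0.21 for Tfam and -0.028 to 0.16 for Uqcrfs1. Cox7a2l was -0.021 without DSS replicate 1 and control replicate 3 together.

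Same-numbered DSS and control libraries come from different mice and were not paired in the main analysis. Their deviations from the group means had correlations of 0.20, 0.03 and 0.04, against -0.18 to 0.15 for libraries with different numbers. Whether libraries of the same number shared a batch is not given and was not tested. With the replicate number as a block, 1 gene was higher (Ndufv3), 0 were lower and 531 of all genes were called. At an unadjusted p below 0.05 the block gave 28 higher and 2 lower, and the share of all tested genes was not computed there. With 3 mice per group, 84 of the 92 genes did not pass the adjusted threshold, and depth is unknown, so its limits on low genes such as Cox6b2 and Cox6a2 cannot be given.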
